A study of Schizosaccharomyces pombe with 12 samples.

Results

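The genes described here encode the enzymes of glycolysis in the fission yeast Schizosaccharomyces pombe. They are 10 of the 7268 features in the deposited count table and were taken by their identifiers: pgi1 (SPBC1604.05), pfk1 (SPBC16H5.02), fba1 (SPBC19C2.07), tpi1 (SPCC24B10.21), tdh1 (SPBC32F12.11), gpd3 (SPBC354.12), pgk1 (SPBC14F5.04c), gpm1 (SPAC26F1.06), eno101 (SPBC1815.01) and pyk1 (SPAC4H3.10c). All 10 passed the filter on low counts. The study sequenced strand-specific mRNA libraries of whole cells from 3 strains at 30°C and at 37°C, with 2 replicate libraries for each of the 6 conditions. The strains were wild-type cells, lsd1-ΔHMG cells, in which the histone demethylase Lsd1 lacks the C-terminal stretch that holds its DNA-binding HMG domain, and set1Δ cells, which lack Set1, the only H3K4 methyltransferase of this yeast. The truncated Lsd1 carried an FTP tag in the study's strains. The 37°C cultures were heat-stressed by a shift from the permissive 30°C.

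Glycolysis turns glucose into pyruvate. In its upper part a hexose phosphate is rearranged (pgi1, phosphoglucose isomerase), phosphorylated at the committed step (pfk1, phosphofructokinase), and split into triose phosphates (fba1, aldolase), which tpi1, triosephosphate isomerase, interconverts. In its lower part glyceraldehyde phosphate is oxidized (tdh1 and gpd3, both glyceraldehyde-3-phosphate dehydrogenases) and the product passes through pgk1 (phosphoglycerate kinase), gpm1 (phosphoglycerate mutase), eno101 (enolase) and pyk1 (pyruvate kinase), with ATP made by Pgk1 and Pyk1. In yeasts that ferment glucose, the genes of the lower part are among the most strongly transcribed of the genome.

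All 10 genes are protein-coding. In the RefSeq annotation of the build ASM294v3, 7 lie on chromosome II, gpm1 and pyk1 on chromosome I and tpi1 on chromosome III. The 70 bases before each annotated gene start are shown because most members carry a TATA element at a like distance from that start. Capitals mark TATAAA and TATATA on either strand and, in tpi1, the HomolD box CAGTCACA, here on the reverse strand. HomolD is known in fission yeast as the element that takes the place of TATA before ribosomal protein genes.
pgi1, chrII:3923581-3923650, minus strand: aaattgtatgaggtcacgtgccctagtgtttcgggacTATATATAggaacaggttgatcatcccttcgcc
pfk1, chrII:2300392-2300461, minus strand: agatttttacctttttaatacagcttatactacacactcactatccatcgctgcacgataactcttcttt
fba1, chrII:1688251-1688320, plus strand: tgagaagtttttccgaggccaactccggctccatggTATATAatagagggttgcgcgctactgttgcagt
tpi1, chrIII:939843-939912, plus strand: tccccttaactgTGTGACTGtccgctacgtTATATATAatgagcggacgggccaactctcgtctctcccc
tdh1, chrII:2807525-2807594, plus strand: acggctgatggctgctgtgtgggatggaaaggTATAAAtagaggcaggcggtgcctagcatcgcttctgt
gpd3, chrII:578047-578116, plus strand: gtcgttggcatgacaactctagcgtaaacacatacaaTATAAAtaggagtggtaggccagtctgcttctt
pgk1, chrII:4159462-4159531, minus strand: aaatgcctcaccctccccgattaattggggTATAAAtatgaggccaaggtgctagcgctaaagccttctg
gpm1, chrI:5174655-5174724, minus strand: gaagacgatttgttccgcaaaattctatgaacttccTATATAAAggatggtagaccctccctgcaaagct
eno101, chrII:2201126-2201195, plus strand: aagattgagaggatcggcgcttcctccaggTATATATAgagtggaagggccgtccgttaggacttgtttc
pyk1, chrI:3846676-3846745, minus strand: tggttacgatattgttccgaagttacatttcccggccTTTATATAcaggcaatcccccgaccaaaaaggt
In the window from 250 bases before to 50 bases after the start, TATAAA occurred on either strand in 5 of 10 members and in 48.1% of 5123 protein-coding promoters of the same length. Beginning between positions -45 and -25, it occurred in the same 5 members and in 7.32% of promoters. TATAAA or TATATA began in that range in 9 of 10 members, pfk1 being the exception, and in 12.6% of promoters. The range and TATATA were chosen after these windows were seen, and the 2 motifs overlap in gpm1 and pyk1. HomolD occurred in tpi1 alone among the members, at position -58, and in 2.67% of promoters. TGACGT, the core of sites for the stress factor Atf1, occurred in pfk1, fba1 and pgk1 (5.89% of promoters). CCCCTC, a stress-response element (2.11% of promoters), occurred in no member. Nor did GAANNTTC (11.1%), an inverted arrangement of the units of heat shock elements. The opposite inverted arrangement of these units was not counted, though a match to it stands in the fba1 window. The positions count from the annotated start, and a match is a description of the letters, not of a bound site.

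Library totals ran from 27642384 to 34843653 counts, and log2 CPM (counts scaled to a common, normalized library size) of replicates correlated at 0.9942 or more. CPM are levels relative to the rest of a library, so a change in the total RNA of a cell cannot be seen in them. The targeted gene set1 was at 14.3 to 16.1 CPM in the set1Δ libraries and at 64.4 to 112 CPM in the 8 others. It was thus lower but not absent in set1Δ, with 317 to 570 counts in a library, and the source of these counts was not tested. The lsd1 truncation cannot be checked from the gene's count, since the rest of the gene remains. In the wild-type libraries most of 10 heat chaperones went against the temperature labels: 3 (pss1, hsp10 and sti1) were called higher and 6 lower in those labelled 37°C, against 6 higher and 0 lower in lsd1-ΔHMG and 8 higher and 0 lower in set1Δ. The small heat shock protein gene hsp16 stood at 39399 and 36204 CPM in the libraries labelled wild-type 30°C and at 4535 and 5795 CPM in those labelled wild-type 37°C. Every comparison with wild-type rests on those 4 libraries, and comparisons with the same wild-type libraries are not independent. Between the mutants, and between temperatures within a mutant, no wild-type library is compared.

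GC content also moved with the results. The members range from 42.8% to 50.6% GC over the whole gene, at percentiles from 96.6 to 100 of protein-coding genes, whose median is 36.8%. Over 5104 protein-coding genes the correlation of the log2 fold change with GC content was r = 0.492 for lsd1-ΔHMG against wild-type at 30°C, 0.572 at 37°C, and 0.112 and 0.495 for set1Δ. For 37°C against 30°C it was -0.209 in wild-type cells, -0.0124 in lsd1-ΔHMG and 0.237 in set1Δ. These are correlations across genes, which share libraries and are not replicates. The 166 other tested genes with at least the lowest GC content of a member had a median log2 fold change of 1.75 for lsd1-ΔHMG against wild-type at 30°C and 2.22 at 37°C, against 0.058 and 0.18 over all protein-coding genes. In wild-type cells at 37°C against 30°C their median was -0.82. Each count of called members is therefore given also with offsets that remove each library's trend with GC content and gene length. A difference in how libraries recover GC-rich RNA and a change shared by GC-rich genes cannot be told apart by these offsets, which remove both.

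**Figure D1:**
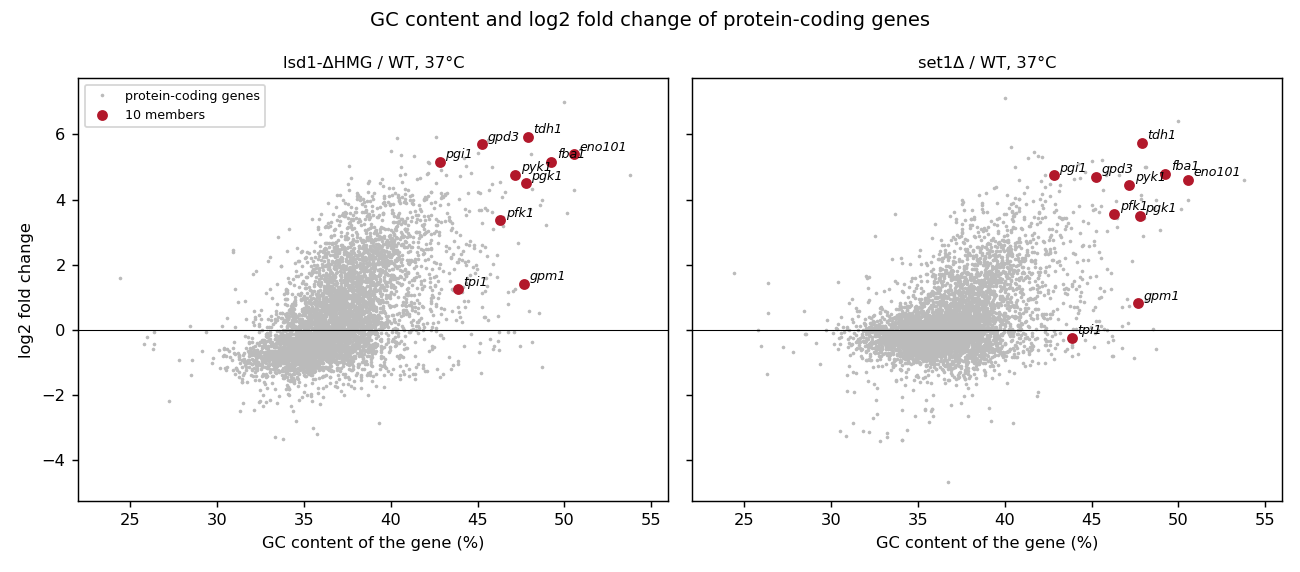
log2 fold change (vertical axis) against GC content of the gene in percent (horizontal axis) for tested protein-coding genes (grey) and the 10 members (red), at 37°C, for lsd1-ΔHMG and set1Δ against wild-type. The members lie between 42.8% and 50.6% GC, and tpi1 and gpm1 sit below the other 8 members in both panels.

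The 10 genes together took 0.427% and 0.49% of the library counts of wild-type cells at 30°C, and 0.477% and 0.488% after the shift. The lsd1-ΔHMG libraries gave 2.75% and 2.92% before the shift and 2.8% and 2.52% after it, and the set1Δ libraries 0.861% and 0.793% before and 1.81% and 1.35% after. Both mutants lay above both wild-type conditions in every library, and lsd1-ΔHMG lay above set1Δ at either temperature. The total hides a shift in make-up. tpi1 and gpm1 made up 51.7% and 51.1% of the summed CPM of the members in wild-type cells at 30°C and 89% and 88.1% at 37°C, against 28.3% to 39.6% in the 8 mutant libraries. tpi1 and gpm1 are also the shortest members, at 957 and 791 bases. The next is fba1 at 1279 bases, and the median of protein-coding genes is 1774. These shares were formed within a library and do not depend on the scaling between libraries. Whether they depend on GC content or gene length was not tested.

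**Figure D2:**
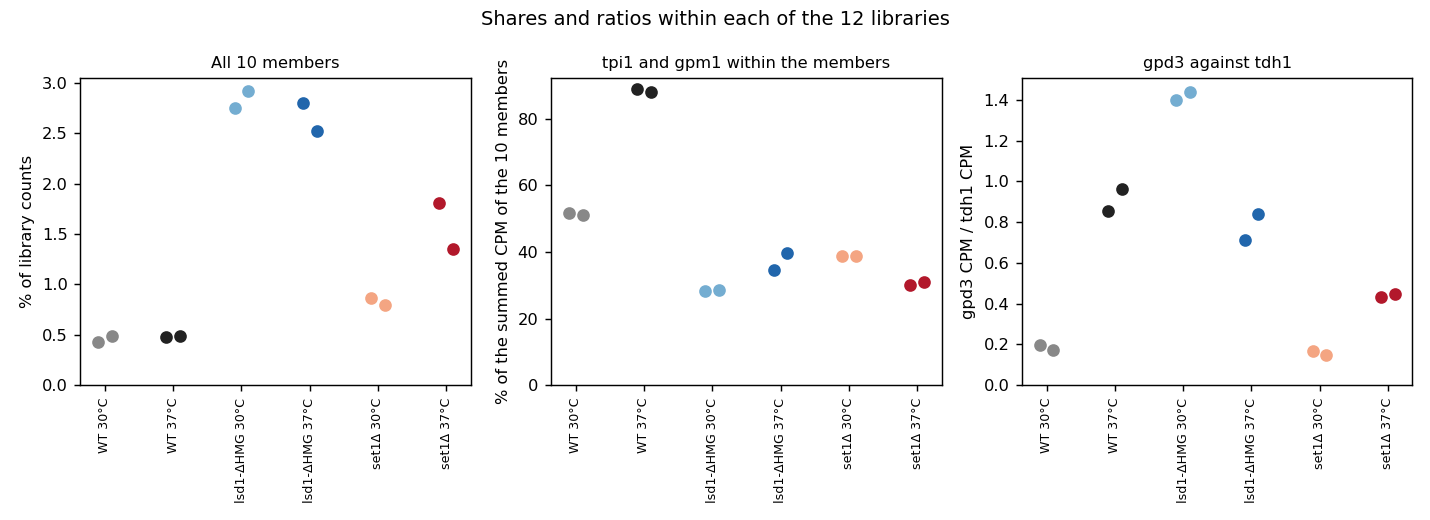
Values of each of the 12 libraries (points) by condition: the share of library counts taken by the 10 members in percent, the share of tpi1 and gpm1 in the summed CPM of the members in percent, and the ratio of gpd3 to tdh1 CPM. The wild-type libraries lie at or under 0.49% in the first panel, and those at 37°C at 88.1% and 89% in the second.

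Levels between genes were compared as CPM per kilobase of gene. In wild-type cells at 30°C the order ran from tpi1 at 1766 ± 139 (SD, n = 2) and gpm1 at 962 ± 94.9 through tdh1 at 365 ± 46.1, fba1 at 357 ± 31.3, pgk1 at 283 ± 26.8, eno101 at 225 ± 28.1 and pyk1 at 134 ± 12.5 to gpd3 at 50.9 ± 1.67, pgi1 at 47 ± 4.7 and pfk1 at 27.3 ± 1.6. The neighbours tdh1 and fba1, and gpd3 and pgi1, lay within their SDs of each other. tpi1 ranked 77 among 5106 protein-coding genes and pfk1 ranked 3173. In lsd1-ΔHMG at 30°C tpi1 ranked 2 with 5046 ± 195 CPM per kilobase, gpm1 ranked 7 with 3813 ± 312 and fba1 ranked 17 with 2570 ± 55.3. gpd3 stood beside them at 2220 ± 203, rank 27, against rank 2419 in wild-type cells at 30°C.

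**Figure D3:**
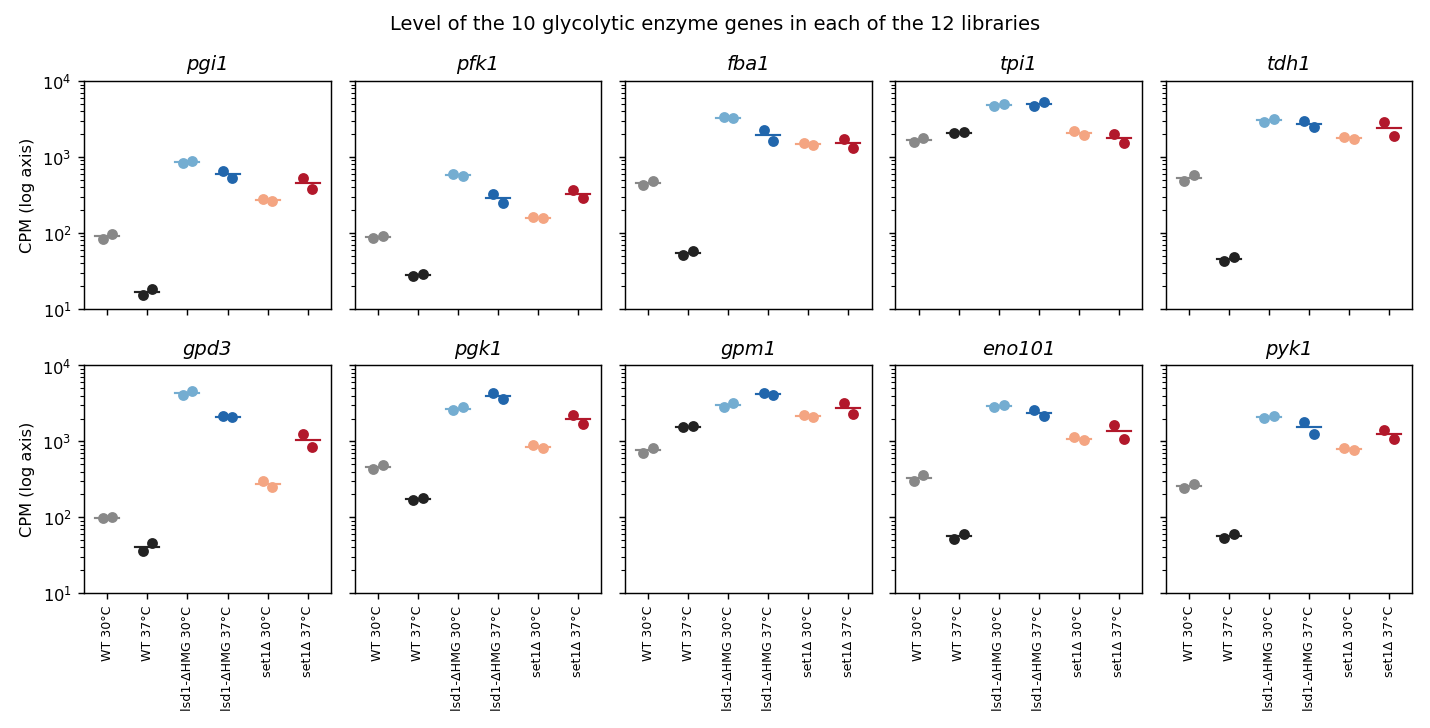
CPM on a log axis (vertical) of each member in the 6 conditions (horizontal), with 1 point for each of the 2 replicates and a line at their mean. In 8 members the lowest points are those of wild-type cells at 37°C, and tpi1 and gpm1 have theirs in wild-type cells at 30°C.

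At 30°C all 10 members were higher in lsd1-ΔHMG than in wild-type cells, from 2.9-fold for tpi1 to 43.6-fold for gpd3. All 10 were called, meaning an adjusted p under 0.05 from edgeR's quasi-likelihood test and a difference of 1 or more on the log2 scale, against 24.4% of 6904 features called higher and 18.1% called lower. The median log2 fold change of the members was 2.79 and that of all features -0.11. The committed enzyme gene pfk1 went from 84.6 and 91.9 CPM in the wild-type libraries to 599 and 569 CPM, a log2 fold change of 2.73 (standard error 0.14, adjusted p = 1.1e-09). The pyruvate kinase gene pyk1 went from 242 and 276 to 2062 and 2147 CPM, a log2 fold change of 3.02 (standard error 0.18, adjusted p = 2.6e-09). With the GC and length offsets 2 members were called, gpd3 at 2.82 and pgi1 at 1.12, against 14.1% of features called higher and 18.7% called lower at that setting, a share of the members near the background. The median of the members was then -0.012, and 5 of 10 changed sign, among them pfk1, the example above, at -0.39 (adjusted p = 7.7e-05), and pgk1 at -0.30 (adjusted p = 0.0023).

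In set1Δ at 30°C the same genes were higher by smaller amounts. 7 of 10 were called higher and none lower, against 21.1% and 11.5% of all features, with a median of 1.54 beside 0.22 for all features. The called members lay close together, from 1.48 for gpd3 to 1.73 for tdh1. pfk1 was at 162 and 155 CPM with a log2 fold change of 0.85 (standard error 0.13, adjusted p = 6.3e-05) and pgk1 at 887 and 822 CPM with 0.88 (standard error 0.14, adjusted p = 3.6e-05), both past the p threshold and short of the fold limit. They passed it when replicate 2 of set1Δ at 30°C was left out, at 1.05 and 1.10, or replicate 1 of set1Δ at 37°C, at 1.02 and 1.05, and pgk1 also without replicate 1 of wild-type at 37°C, at 1.03. tpi1 had a log2 fold change of 0.29 (standard error 0.13, adjusted p = 0.055). With the offsets 0 members were called by edgeR, against 12.1% of features higher and 16.2% lower, and the median was 0.16. The 6 of 10 at an unadjusted p under 0.05 ran both ways: pgi1 (0.66), gpm1 (0.34) and tdh1 (0.30) lay above wild-type, and pfk1 at -0.70 (adjusted p = 3e-07), pgk1 at -0.58 (adjusted p = 8.7e-06) and tpi1 at -0.49 (adjusted p = 0.00031) below it. The share of all features at that unadjusted p was not counted with the offsets, so 6 of 10 is not read as a result. Without offsets or a fold limit, 5560 of 6904 features had an adjusted p under 0.05 in edgeR. DESeq2 and limma-voom, run without offsets, called 7 members each, beside 2165 and 2249 of 6904 features.

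At 37°C the differences from wild-type were wider for most members. In lsd1-ΔHMG 10 of 10 were called higher, against 25.4% of all features called higher and 15.3% called lower, with a median of 4.95 beside -0.059 for all features. In set1Δ 8 were called higher and 0 lower, against 18.6% and 5.55%, with a median of 4.53 beside 0.0079. tdh1 led in both mutants, at 61.3-fold in lsd1-ΔHMG and 53.7-fold in set1Δ. tpi1 and gpm1, the shortest members, stood apart, at 2.4-fold and 2.7-fold in lsd1-ΔHMG. In set1Δ neither was called, with log2 fold changes of -0.24 (standard error 0.13, adjusted p = 0.12) for tpi1 and 0.81 (standard error 0.14, adjusted p = 0.00013) for gpm1, which reached 1.01 without replicate 2 of set1Δ at 37°C. The call of tpi1 in lsd1-ΔHMG was lost at 0.99 when the scaling rested on protein-coding genes. With the offsets 5 members were called in each mutant, 3 higher and 2 lower, against 14.3% of features higher and 16.5% lower in lsd1-ΔHMG and 11.7% and 10.6% in set1Δ. pgi1, tdh1 and gpd3 stayed higher at 2.36, 1.86 and 2.09 in lsd1-ΔHMG and at 2.52, 1.95 and 1.54 in set1Δ. gpm1 and tpi1 were called lower, at -1.78 and -1.07 in lsd1-ΔHMG and -2.18 and -2.19 in set1Δ. pfk1 also changed sign, at -0.96 (adjusted p = 1.5e-08) in lsd1-ΔHMG and -0.35 (adjusted p = 0.00031) in set1Δ, as did pgk1 at -0.37 and eno101 at -0.12 in set1Δ.

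**Figure D4:**
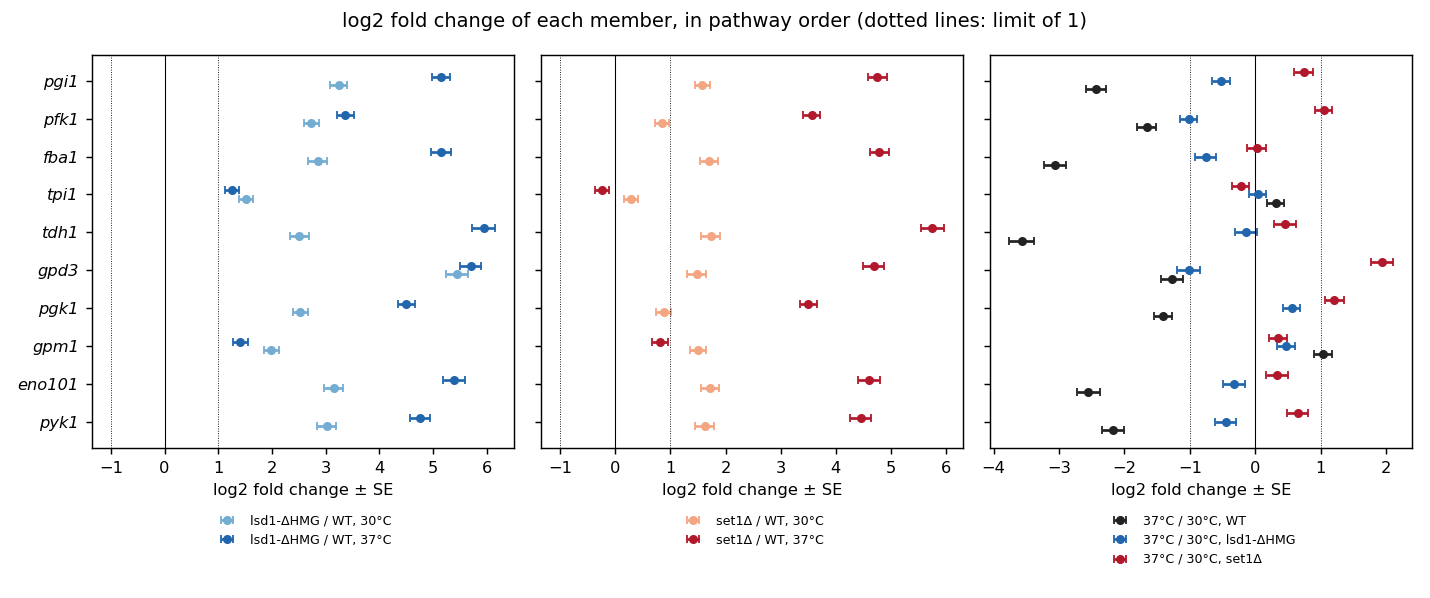
log2 fold change with its standard error (horizontal axis) of each member (vertical axis, in pathway order) for lsd1-ΔHMG and set1Δ against wild-type at 30°C and 37°C and for 37°C against 30°C in each strain, with dotted lines at the limit of 1. In wild-type cells 8 members lie below -1, and tpi1 at 0.31 and gpm1 at 1.04 lie above 0.

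**Figure D5:**
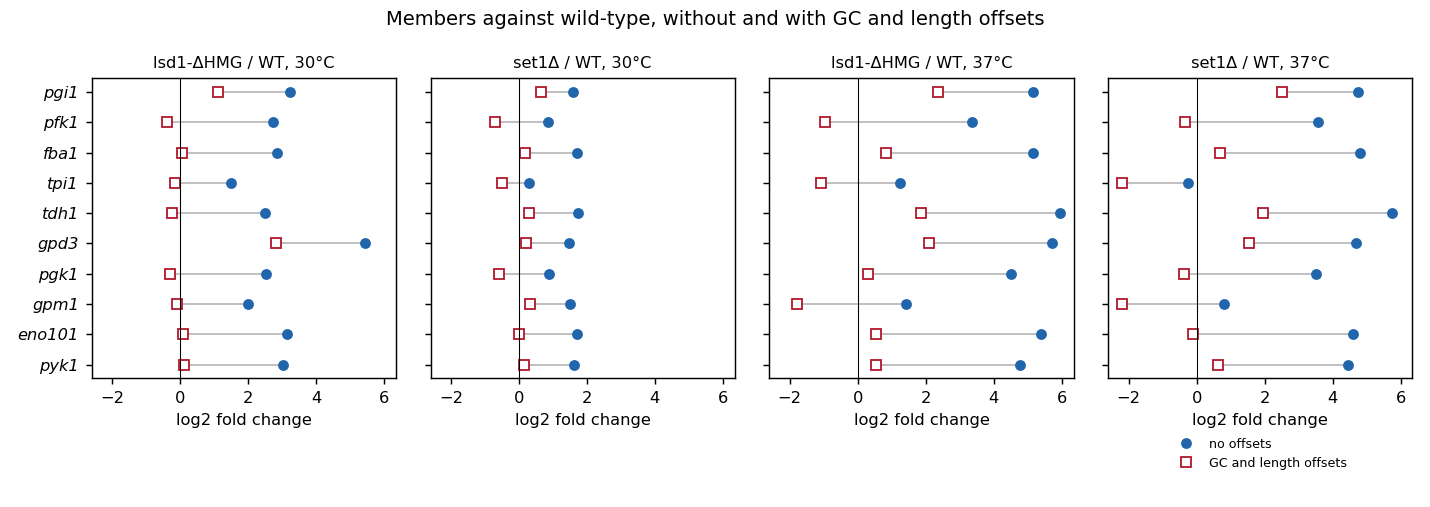
log2 fold change (horizontal axis) of each member against wild-type without offsets (blue circles) and with GC and length offsets (red squares), for both mutants at both temperatures. The squares lie to the left of the circles, and gpd3 keeps 2.82 of its 5.45 in lsd1-ΔHMG at 30°C.

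In wild-type cells most members were lower at 37°C than at 30°C. Of 10 members, 8 were called lower and 1 higher, against 15.9% and 5.55% of all features, with a median log2 fold change of -1.92 beside -0.04. The lowest value was that of tdh1, which fell from 485 and 580 CPM to 42.5 and 47.4 CPM, 11.9-fold, followed by fba1, from 428 and 485 to 50.9 and 58.2 CPM, 8.4-fold. gpm1 went the other way, from 708 and 814 to 1528 and 1609 CPM, a log2 fold change of 1.04 (standard error 0.14, adjusted p = 1.3e-05), which was 0.95 and no longer called without replicate 1 of wild-type at 30°C. tpi1 was not called, with a log2 fold change of 0.31 (standard error 0.13, adjusted p = 0.049). With the offsets pgi1 at -1.51 and tdh1 at -1.66 were called lower, gpm1 at 2.53 and tpi1 at 1.15 higher, and the other 6 were not called, against 12.5% of features lower and 7.79% higher. These are the 4 libraries in which 6 of 10 heat chaperones were called lower at 37°C and 3 higher.

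Within the mutants the shift to 37°C moved few members. In lsd1-ΔHMG 0 were called higher and 2 lower, pfk1 and gpd3, both at -1.02, against 4.48% and 10.4% of all features. Leaving out replicate 1 or 2 of lsd1-ΔHMG at 30°C or replicate 2 at 37°C left 1 call, with pfk1 at -0.98 and -0.83 without the first and the last and gpd3 at -0.92 without the second. In set1Δ 3 members were called higher and 0 lower, against 11.4% and 20.9%. gpd3 rose from 299 and 252 CPM to 1262 and 852 CPM, a log2 fold change of 1.94 (standard error 0.17, adjusted p = 1.8e-07), pgk1 by 1.21 and pfk1 by 1.05. Without replicate 1 of set1Δ at 37°C, the higher of the pair in every member, pgk1 was at 0.99 and pfk1 at 0.83 and gpd3 alone was called, and pfk1 was also lost, at 0.98, without replicate 2 of set1Δ at 30°C. With the offsets 1 member was called in each mutant, pgk1 at 1.16 in lsd1-ΔHMG (4.37% of features higher, 8.3% lower) and gpd3 at 1.51 in set1Δ (13.4% and 15%).

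The difference between a mutant's response and that of wild-type was tested as an interaction. In lsd1-ΔHMG 6 members had a higher response than in wild-type and 0 a lower one, against 12.1% and 6.4% of all features. A higher response is not a rise in itself. Within lsd1-ΔHMG these 6 ran from -0.76 (fba1) to 0.56 (pgk1) for 37°C against 30°C, none of them called. In wild-type cells they ran from -3.57 (tdh1) to -1.41 (pgk1). In set1Δ 8 had a higher response and 0 a lower one, against 18.8% and 17.9%. The largest differences were those of tdh1, 3.42 (standard error 0.25, adjusted p = 2.1e-07) in lsd1-ΔHMG and 4.02 (standard error 0.25, adjusted p = 1.1e-08) in set1Δ. gpd3 differed from wild-type in set1Δ (3.21 (standard error 0.24, adjusted p = 6.7e-08)) and was not called in lsd1-ΔHMG (0.25 (standard error 0.24, adjusted p = 0.38)). For tpi1 the values were -0.27 and -0.53 and for gpm1 -0.57 and -0.69, none past the fold limit, though gpm1 reached -1.05 in set1Δ without replicate 1 of set1Δ at 37°C. With the offsets 3 members were called in lsd1-ΔHMG, pgi1 at 1.23 and tdh1 at 2.08 higher and gpm1 at -1.69 lower, and 5 in set1Δ, pgi1 at 1.86, tdh1 at 1.65 and gpd3 at 1.31 higher and tpi1 at -1.70 and gpm1 at -2.52 lower. At that setting 8.66% of features were called higher and 7.68% lower in lsd1-ΔHMG, and 16.8% and 15.2% in set1Δ.

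The mutants were compared with each other without any wild-type library in the contrast. At 30°C 8 members were higher in lsd1-ΔHMG than in set1Δ and 0 lower, against 19.4% and 25.5% of all features, with a median of 1.42 beside 0.077. gpd3 led with 15.6-fold, a log2 fold change of 3.97 (standard error 0.19, adjusted p = 2.6e-10), and pfk1 followed with 3.7-fold. tdh1 at 0.79 (standard error 0.17, adjusted p = 0.00067) and gpm1 at 0.48 (standard error 0.14, adjusted p = 0.0048) were short of the fold limit. At 37°C 3 were called higher and 0 lower, against 12% and 11.3%. tpi1 was at 1.49 (standard error 0.13, adjusted p = 2.8e-07). gpd3 at 1.01 and pgk1 at the limit itself fell under it in 12 of 23 alternatives that changed neither the GC trend nor the limit, among them those without replicate 2 of set1Δ at 37°C (0.75 and 0.83), replicate 1 or 2 of set1Δ at 30°C (0.96 for both) or replicate 1 of wild-type at 37°C (0.93 and 0.92). Without replicate 1 of lsd1-ΔHMG at 37°C pgk1 alone of the pair was lost, at 0.88, and without replicate 1 of set1Δ at 37°C eno101, otherwise at 0.79, was called at 1.05. With the wild-type libraries left out of the fit, 8 members stayed called at 30°C and 1, tpi1, at 37°C, with gpd3 and pgk1 at 0.92. With the offsets 1 member was called at each temperature, gpd3 at 2.60 at 30°C (14.3% of features higher, 16.2% lower) and tpi1 at 1.12 at 37°C (6.95% and 9.98%).

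The upper enzymes pgi1, pfk1 and fba1 shared a low level in wild-type cells at 37°C and a peak in lsd1-ΔHMG at 30°C. This was not particular to the upper part, since tdh1, gpd3, eno101 and pyk1 shared it and tpi1 did not. pgi1 read 83.9 and 96.7 CPM in wild-type cells at 30°C and 15.4 and 18.1 at 37°C. The lsd1-ΔHMG libraries read 828 and 880 at 30°C and 657 and 533 at 37°C, and those of set1Δ 275 and 264 (30°C) and 521 and 381 (37°C). The conditions of wild-type cells did not overlap with any mutant condition, and the highest mean was 50.9 times the lowest. pfk1 had the lowest mean per kilobase of the members in all 6 conditions, though in wild-type cells at 37°C pgi1 lay within the SD of it, and ranged 20.9-fold over the means. Its set1Δ libraries at 37°C (371 and 285 CPM) overlapped those of lsd1-ΔHMG at 37°C (328 and 248). fba1 fell to 50.9 and 58.2 CPM in wild-type cells at 37°C and stood at 3337 and 3237 CPM in lsd1-ΔHMG at 30°C, a range of 60.2-fold. In set1Δ fba1 read 1536 and 1430 CPM at 30°C and 1709 and 1301 at 37°C.

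tpi1, which lets both products of the split hexose enter the lower part, was the steadiest member, with 2.94-fold between its lowest and highest means. It read 1596 and 1785 CPM in wild-type cells at 30°C and 2074 and 2112 at 37°C. It read 4697 and 4961 (30°C) and 4697 and 5236 (37°C) CPM in lsd1-ΔHMG, and 2177 and 1960 (30°C) and 2011 and 1530 (37°C) in set1Δ. Only lsd1-ΔHMG stood clear of the other strains, and set1Δ at 37°C lay under or across the wild-type values. gpm1, at 47.7% GC, had the next smallest range, 5.49-fold. It read 2841 and 3190 (30°C) and 4330 and 4021 (37°C) CPM in lsd1-ΔHMG and 2202 and 2115 (30°C) and 3170 and 2328 (37°C) in set1Δ, and in each of the 3 strains both of its 37°C libraries lay above both of its 30°C libraries.

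The dehydrogenase step has 2 genes, and they differed. Tdh1 is also known in fission yeast for a part in the response to hydrogen peroxide. tdh1 read 485 and 580 CPM in wild-type cells at 30°C and 42.5 and 47.4 at 37°C, 2885 and 3192 (30°C) and 2992 and 2516 (37°C) in lsd1-ΔHMG, and 1804 and 1723 (30°C) and 2910 and 1915 (37°C) in set1Δ. gpd3 read 96.4 and 101 CPM in wild-type cells at 30°C and 36.2 and 45.5 at 37°C, and 4029 and 4586 (30°C) and 2132 and 2116 (37°C) in lsd1-ΔHMG. Its range over the means, 105-fold, was the widest of the members, and lsd1-ΔHMG at 30°C held its highest values. The ratio of gpd3 to tdh1 within a library was 0.199 and 0.174 in wild-type cells at 30°C and 0.166 and 0.146 in set1Δ at 30°C. It was 1.4 and 1.44 in lsd1-ΔHMG at 30°C, above every other library, and 0.713 and 0.841 in lsd1-ΔHMG at 37°C. In set1Δ at 37°C it was 0.434 and 0.445. In wild-type cells at 37°C, where both genes were low, it was 0.852 and 0.96. With 2 libraries on a side an exact permutation test of such a ratio cannot go below p = 0.333, so the ratios are given as values.

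The 2 coding sequences, of 1011 and 1008 bases, are identical at 94.3% of aligned positions. The longest stretch without a difference, 203 bases in both at coding positions 577 to 779, is shown because a fragment that lies wholly within it cannot be assigned to 1 of the genes by its sequence; in ASM294v3 it lies at chrII:2808213-2808415 in tdh1 and at chrII:579307-579509 in gpd3, both on the plus strand.
tdh1 and gpd3, shared stretch: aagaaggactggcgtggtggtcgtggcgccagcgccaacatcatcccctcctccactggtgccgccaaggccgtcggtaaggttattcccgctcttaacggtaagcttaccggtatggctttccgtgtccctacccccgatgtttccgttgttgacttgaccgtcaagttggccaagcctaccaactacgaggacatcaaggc
The study's methods name a fraction option for counting but not how fragments that align to both genes were treated, so the level of the lower gene of the pair and the ratio are uncertain. In lsd1-ΔHMG at 30°C gpd3 was above tdh1 in both libraries. Their sum was 581 and 681 CPM in wild-type cells at 30°C, 78.6 and 93 at 37°C, 6914 and 7779 in lsd1-ΔHMG at 30°C and 2103 and 1975 in set1Δ at 30°C.

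The last 4 steps followed the general pattern apart from gpm1. pgk1, the first ATP-making step, was the only member besides gpm1 and tpi1 with its highest mean in lsd1-ΔHMG at 37°C, where it read 4277 and 3642 CPM against 2573 and 2799 at 30°C, a log2 fold change of 0.56 (standard error 0.13, adjusted p = 0.0022). In wild-type cells it read 433 and 495 CPM at 30°C and 167 and 182 at 37°C. eno101 read 299 and 357 CPM in wild-type cells at 30°C, 51.8 and 60.2 at 37°C, and 2821 and 3026 (30°C) and 2564 and 2133 (37°C) in lsd1-ΔHMG. In set1Δ it read 1130 and 1037 (30°C) and 1637 and 1085 (37°C) CPM. pyk1 read 54 and 59.9 CPM in wild-type cells at 37°C and 1816 and 1261 in lsd1-ΔHMG and 1421 and 1076 in set1Δ at that temperature. Over the 6 condition means on a log2 scale, each centred on its own mean, pgi1, eno101 and pyk1 were the closest members, with a root mean square difference of 0.139 for pgi1 and pyk1, 0.145 for pgi1 and eno101 and 0.216 for eno101 and pyk1. Enolase acts on the product of the mutase. The ratio of eno101 to gpm1 CPM within a library was 0.423 and 0.439 in wild-type cells at 30°C, 0.0339 and 0.0374 at 37°C, 0.993 and 0.948 in lsd1-ΔHMG at 30°C and 0.513 and 0.49 in set1Δ at 30°C.

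The pathway's surroundings were described with lists of 28 genes in 7 groups. Of these, 18 were called higher and 1 lower in lsd1-ΔHMG at 30°C, 22 and 0 at 37°C, 9 and 5 in set1Δ at 30°C and 18 and 5 at 37°C. In wild-type cells 0 were higher and 19 lower at 37°C. The shares of all features are those given above, 24.4% higher and 18.1% lower in lsd1-ΔHMG at 30°C for example. The listed genes have a median GC content of 41%, from 33.5% to 48.1%, and with the offsets the counts became 6 higher and 5 lower and 8 and 6 in lsd1-ΔHMG, 3 and 9 and 7 and 5 in set1Δ, and 0 and 8 in wild-type cells. The calls of single listed genes that follow are those without offsets. The hexokinase genes hxk1 and hxk2, which phosphorylate glucose before pgi1, were called higher in both mutants at both temperatures. hxk2 went from 66.8 and 77.2 CPM in wild-type cells at 30°C to 747 and 732 CPM in lsd1-ΔHMG. The second enolase gene, eno102, read 515 and 444 CPM in wild-type cells at 30°C, 32.7 and 32.8 at 37°C, 339 and 326 in lsd1-ΔHMG at 30°C and 28.6 and 21.2 in set1Δ at 30°C. Its log2 fold change in set1Δ at 30°C was -4.27 (standard error 0.15, adjusted p = 6.4e-11), where eno101 had 1.72, and in lsd1-ΔHMG at 30°C it was -0.53, where eno101 had 3.15. At 37°C eno102 read 295 and 313 CPM in lsd1-ΔHMG, a log2 fold change of 3.21 beside 5.39 for eno101, and 36 and 27.2 in set1Δ, at -0.055 where eno101 was called higher. In wild-type cells both were lower at 37°C, at -3.87 and -2.55. Their coding sequences are 69.5% identical.

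Of 6 genes of fermentation, which turns pyruvate into ethanol, 3 were called higher and 0 lower in lsd1-ΔHMG at 30°C and at 37°C. adh1, alcohol dehydrogenase, went from 410 and 467 CPM in wild-type cells at 30°C to 2857 and 2900 CPM in lsd1-ΔHMG, and pdc101, pyruvate decarboxylase, from 253 and 294 to 1326 and 1403. In set1Δ at 37°C 3 rose and 3 fell, the latter being pdc102, pdc202 and adh4. Of 4 pentose phosphate genes, zwf1, gnd1 and tal1 were called higher in both mutants at both temperatures, with zwf1, glucose-6-phosphate dehydrogenase, at 2.84 in lsd1-ΔHMG and 2.69 in set1Δ at 30°C, and rki1 was at -0.87 and -1.79, the latter called lower. Of 5 genes of pyruvate dehydrogenase and pyruvate carboxylase, 3 were called higher in lsd1-ΔHMG at 30°C and 4 at 37°C, and 2 and 3 in set1Δ.

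Gluconeogenesis runs most, not all, steps of glycolysis backwards, and fbp1, the fructose bisphosphatase gene, is known in fission yeast as repressed by glucose. It read 7005 and 6117 CPM in wild-type cells at 30°C, 227 and 220 at 37°C, 817 and 658 in lsd1-ΔHMG at 30°C, 155 and 195 at 37°C, 69.2 and 66.4 in set1Δ at 30°C and 47 and 47.4 at 37°C. Against wild-type at 30°C its fold change on the log2 scale came to -3.15 for lsd1-ΔHMG and -6.60 for set1Δ. It was the 1 gene of the 28 called lower in lsd1-ΔHMG at 30°C, and it was high in the libraries where hsp16 was also highest. Their part in the differences of the mutants from wild-type cells at 30°C was not tested. The other 6 genes of that list act on glycerol and triose phosphates, and 5 of them were called higher in lsd1-ΔHMG at 30°C and 6 at 37°C. The trehalose genes tps1, tpp1 and ntp1 were all called higher in both mutants at 37°C, and in set1Δ at 30°C they were at 0.019, 0.61 and -0.52, short of the limit.

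The genes with the pattern most like that of 3 members were sought among 3940 protein-coding features with a mean of at least 50 CPM. The members themselves were left out of these. Likeness was measured by the root mean square difference of the centred log2 means over 6 conditions. Nearest to tdh1 were ilv5 (0.213), which acts in branched-chain amino acid synthesis, tef101 (0.226), a gene of translation elongation factor EF-1 alpha, and rpb1 (0.345), the largest subunit of RNA polymerase II. Nearest to pfk1 were SPAC29A4.02c (0.187), eft201 (0.188), a gene of the elongation factor EF-2, and SPBC25B2.03 (0.207). Nearest to tpi1 were ppk15 (0.0968), rng10 (0.102) and nup40 (0.112), a nucleoporin gene, with GC contents of 36.6%, 39% and 34.4%. The genes nearest to tdh1 have 45%, 47.8% and 41.3% GC and those nearest to pfk1 42.1%, 45.4% and 37.6%, in the order given. Among the members left out, fba1 was the nearest to tdh1, at 0.329, which is nearer than rpb1. Likeness is a description over 6 means from 12 libraries.

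The genes beside the members were described as well. The neighbours were the 20 nearest protein-coding genes without an overlap, 1 on each side of each member. Of these, 9 were called higher and 0 lower in lsd1-ΔHMG at 30°C, with a median of 0.46. At 37°C 10 were called higher and 0 lower, with a median of 0.96. Of all features 24.4% and 25.4% were called higher. Among all features 18.1% and 15.3% were called lower in those comparisons. The set1Δ libraries had 5 higher and 3 lower neighbours at 30°C, where the shares of all features were 21.1% and 11.5%. After the shift they had 8 and 2, beside shares of 18.6% and 5.55%. In wild-type cells 3 neighbours were called higher and 6 lower at 37°C, against 5.55% and 15.9% of features. Neighbour counts with the GC and length offsets are not given. Both neighbours of gpd3 were called higher in lsd1-ΔHMG at 30°C, def1 at 2.37 and rga6 at 2.15, and those of pfk1 were not, sad1 at 0.13 and snd301 at -0.49. The protein-coding genes noc4, uba2 and mug106 overlap pgi1, pfk1 and gpm1 and were passed over as neighbours. In lsd1-ΔHMG at 30°C they were at 0.0086, -0.75 and 2.12, and mug106 alone was called. Among annotated features that overlap a member and were counted, the lncRNA SPNCRNA.1648, opposite to pgi1 over 366 bases, had a mean of 99.2 CPM in wild-type cells at 30°C and 49 in lsd1-ΔHMG at 30°C. mug106 shares 30 bases with gpm1 on the same strand, where reads may be divided between them, and it went from a mean of 75.9 CPM in wild-type cells at 30°C to 330 in lsd1-ΔHMG at 30°C. It was also the feature with the pattern nearest to gpm1, with a difference of 0.0642. The same means of gpm1 were 761 and 3016 CPM.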

How the data were processed

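Libraries of 3 strains at 30°C and 37°C entered the analysis, 2 to a condition. The values are expected counts that the authors deposited without normalization: reads were trimmed with Trimmomatic 0.39, aligned with STAR to ASM294v2 and assigned with featureCounts under a fraction option. Of the 34 value columns over 7268 features, the 12 of these strains were read, and the other 22 were not used here. Between 73.7% and 83.6% of values in a library were not whole and were rounded, and library totals ran from 27642384 to 34843653.

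The members and the gene lists were chosen with earlier results of these data known. All 12 libraries were fitted together with edgeR 4.0.16 in R 4.3.3 (TMM factors, filterByExpr by condition, robust quasi-likelihood test, Benjamini-Hochberg adjustment over 6904 features), with 11 comparisons. Features were called at an adjusted p under 0.05 if they also differed by 1 or more, in either direction, on the log2 scale. The common biological coefficient of variation was 0.0806. Standard errors are not an output of this test. They were formed as the absolute log2 fold change divided by the square root of its F statistic. Per the study's methods the replicates of a genotype were derived independently. With 2 libraries a condition, p-values measure only the spread between these libraries.

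Named besides the members were set1 and lsd1 and the listed genes of neighbouring pathways. So were the 3 features, members left out, most like tdh1, tpi1 and pfk1 in their condition means (log2 of mean CPM plus 0.5). The nearest protein-coding neighbours without an overlap and features overlapping a member were named too. fbp1, hxk2, def1, rga6, sad1, snd301 and mug106 were singled out among these after their values were seen. Identifiers were matched to RefSeq's ASM294v3 (6846 features, or 94.2%), which gave names, GC content, sequences and coordinates; these are not those of ASM294v2. CPM per kilobase used the whole gene. Alternatives were other scalings, DESeq2 1.42.0, limma-voom (limma 3.58.1), other filters and fold limits, only the libraries compared, a replicate block, GC and length offsets (loess, span 0.5), protein-coding genes only and each library left out; 2 more, without the wild-type libraries and with offsets estimated without the members, were chosen after seeing the data. The scripts were tested on simulated data. Python 3.11.15, numpy 2.4.6, pandas 2.3.3 and matplotlib 3.10.9 were used.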

Additional observations from a re-analysis of the deposited data

Results flagged for a closer look

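The response to 37°C of 6 members differed between lsd1-ΔHMG and wild-type cells, as a test of the difference of the log2 fold changes in edgeR. The differences were 1.91 for pgi1, 2.31 for fba1, 3.42 for tdh1, 1.97 for pgk1, 2.24 for eno101 and 1.73 for pyk1, each positive. With GC and length offsets those of pgi1 (1.23) and tdh1 (2.08) stayed past the threshold.

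In set1Δ the response of 8 members differed from that of wild-type cells. The differences were 3.17 for pgi1, 2.71 for pfk1, 3.09 for fba1, 4.02 for tdh1, 3.21 for gpd3, 2.62 for pgk1, 2.88 for eno101 and 2.84 for pyk1. With the offsets those of pgi1 (1.86), tdh1 (1.65) and gpd3 (1.31) stayed past it. All 14 differences rest on the same 4 wild-type libraries, in which 6 of 10 heat chaperones were called lower at 37°C and 3 higher, and the part of those libraries was not tested. No condition had the 4 samples needed to look for a sample far from the others.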

How the results depend on the processing

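Counts of called members in the comparisons with wild-type and in the interactions stayed within 1.5 times their value under other scalings, filters, tests and libraries left out. With single libraries left out, lsd1-ΔHMG kept 10 at both temperatures and set1Δ had 7 to 9 and 8 to 9, with 8 to 9 for wild-type 37°C against 30°C, 6 and 8 to 9 for the interactions, 8 between the mutants at 30°C, 1 to 4 at 37°C, and 1 to 3 for 37°C against 30°C in either mutant. GC and length offsets changed every count: to 2, 0, 5 and 5 against wild-type, to 4 (wild-type), 1 and 1 between temperatures, to 3 and 5 for the interactions and to 1 and 1 between the mutants. With the offsets estimated without the members the counts were the same except for 6 (lsd1-ΔHMG, 37°C, against wild-type) and 5 (37°C against 30°C in wild-type cells).

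Without a fold limit, 7 members were called in each of 37°C against 30°C in lsd1-ΔHMG, in set1Δ, and lsd1-ΔHMG against set1Δ at 37°C. Of all 6904 features 4711, 5415 and 5481 were called in these comparisons, a share near that of the members. With a limit of 2 these counts of members became 0, where 147, 544 and 232 of 6904 features were called. The count for set1Δ against wild-type at 30°C became 0 (472 features) and that for wild-type 37°C against 30°C 5 (447 features). It was 3 for the lsd1-ΔHMG interaction (291 features) and 1 between the mutants at 30°C (581 features). Between the mutants at 37°C the count was 1 with RLE, upper-quartile or protein-coding TMM factors, with at least 50 counts, with DESeq2, with only the libraries compared, with protein-coding genes only and without the wild-type libraries.

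With the offsets (in brackets, with those estimated without the members) 34 values of members changed sign. For lsd1-ΔHMG against wild-type at 30°C they were -0.39 (-0.36) for pfk1, -0.15 (-0.14) for tpi1, -0.22 (-0.18) for tdh1, -0.30 (-0.26) for pgk1 and -0.093 (-0.064) for gpm1. At 37°C they were -0.96 (-0.86) for pfk1, -1.07 (-1.03) for tpi1 and -1.78 (-1.68) for gpm1. For set1Δ at 30°C they were -0.70 (-0.70) for pfk1, -0.49 (-0.48) for tpi1 and -0.58 (-0.58) for pgk1, and at 37°C -0.35 (-0.29) for pfk1, -0.37 (-0.28) for pgk1, -2.18 (-2.10) for gpm1 and -0.12 for eno101. For wild-type 37°C against 30°C they were 0.30 (0.27) for pfk1, 0.20 (0.17) for gpd3, 0.19 with the block added, and 0.55 (0.49) for pgk1. The interactions of gpd3 in lsd1-ΔHMG, -0.74 (-0.69; -0.73 with the block), and of eno101 in set1Δ, -0.13 (-0.002), and, between the mutants at 30°C, fba1 at -0.11 (-0.069), tdh1 at -0.52 (-0.49), gpm1 at -0.43 (-0.41) and pyk1 at -0.031 (-0.0019) also did. The other 10, none called without offsets, were -0.57 for the interaction of pfk1 in lsd1-ΔHMG; 0.42 for tdh1, 0.42 for eno101 and 0.15 for pyk1 between temperatures in lsd1-ΔHMG and -0.42 for fba1, -0.0072 for tdh1 and -0.16 for eno101 in set1Δ; and -0.17 for pgi1, -0.093 for tdh1 and -0.09 for pyk1 between the mutants at 37°C. Without replicate 1 of wild-type at 37°C the interaction of gpd3 in lsd1-ΔHMG was -0.044, the lowest of those with 1 library left out, of which 0.43 was the highest. The cause was not tested.

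TMM factors from protein-coding genes moved the median of all features from -0.11 to -0.29 for lsd1-ΔHMG against wild-type at 30°C and from -0.059 to -0.31 at 37°C, and the calls over all features from 1683 higher and 1248 lower to 1474 and 1660, and from 1756 and 1056 to 1487 and 1720. The differences of replicate 1 from replicate 2 correlated between conditions at -0.238 to 0.479. The highest value was that of wild-type at 37°C and lsd1-ΔHMG at 30°C. Whether replicates of like number share a batch was not tested. A fit with the replicate block kept all 11 counts, among them 10 in lsd1-ΔHMG and 7 in set1Δ at 30°C. Depth was not varied; the lowest value of a member was 15.4 CPM (pgi1 in wild-type cells at 37°C), and 2 libraries a condition limit the precision.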
